A study of Mus musculus with 28 samples.

Results

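The 9 genes described here belong to the acute phase response and the complement system: Saa3, Lcn2, Hp, C3, C4b, Cfb, C1ra, C1s1 and Serping1, out of 55536 genes counted. They were chosen by name, with it already known that Saa3 and C3 were lower in EO771 cells grown on myotubes, so that comparison is given as a description and carries no test for these genes. Their RNA was measured in 28 libraries of mouse cells. EO771 is a breast cancer line, C2C12 a muscle line labelled as myotubes, and MLg a line of lung fibroblasts. All 3 lines are labelled wild type and were kept in the same serum-supplemented medium. EO771 was grown alone, on C2C12 or on MLg, and C2C12 and MLg were each grown alone or under EO771, which gave 7 groups of 4 libraries. Cancer and host cells touched in the shared cultures, and the sources used here give neither the way they were separated before RNA extraction nor the length of co-culture. Each line is 1 cultured line, and nothing says that replicates came from separate cultures, so a p-value here measures the spread between libraries, which may be technical in part. In such bulk RNA, fewer cells of a kind and less RNA per cell cannot be told apart.

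Acute phase proteins are secreted proteins whose synthesis rises in inflammation, chiefly in the liver but also in epithelium, fibroblasts and tumour cells. Interleukin 6 acting through STAT3, and interleukin 1 and tumour necrosis factor acting through NF-kB and C/EBP factors, are their classical inducers. Complement is a cascade of plasma proteins. C1r and C1s start the classical pathway, where C1s cuts C4. Factor B joins the alternative pathway, and all routes meet at C3. The C1 inhibitor encoded by Serping1 holds C1r and C1s in check. Fibroblasts are a known source of many complement proteins outside the liver.

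Promoters are shown for Saa3 and C3, the 2 genes whose lower level in EO771 chose the set, on the strand of the gene and with motif matches in capitals. The sequences are those of RefSeq on GRCm38.p6, whose table held the 250 bases before a start site for 5 of the 9 genes. Bases that GENCODE counts as exon of the gene were left out, 24 at the end of the Saa3 window and 0 for C3. Saa3 is shown from chr7:46715701-46715926 and C3 from chr17:57228137-57228386, both on the minus strand.
Saa3: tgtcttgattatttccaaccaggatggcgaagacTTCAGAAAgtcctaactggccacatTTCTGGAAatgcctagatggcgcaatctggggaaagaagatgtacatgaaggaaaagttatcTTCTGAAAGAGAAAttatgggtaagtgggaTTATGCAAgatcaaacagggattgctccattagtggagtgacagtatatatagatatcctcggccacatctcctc
C3: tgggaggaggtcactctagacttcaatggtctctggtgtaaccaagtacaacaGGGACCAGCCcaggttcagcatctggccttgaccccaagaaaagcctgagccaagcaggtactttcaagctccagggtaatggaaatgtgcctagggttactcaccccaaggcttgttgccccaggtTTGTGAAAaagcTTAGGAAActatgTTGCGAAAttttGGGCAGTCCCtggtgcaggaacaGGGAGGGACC
The motifs searched on both strands were NF-kB (GGGANNNNCC), C/EBP (TTNNGNAA), STAT (TTCNNNGAA) and the interferon element (GAAANNGAAA). Of 32851 promoter windows of this length, 17.6% held the NF-kB motif, 36.8% the C/EBP motif, 7.02% the STAT motif and 2.98% the interferon element. The Saa3 window held 4 C/EBP matches and 1 interferon element, which shares bases with the C/EBP match at positions -129 to -122 from the start site. The C3 window held 3 NF-kB matches, at positions -197 to -188, -33 to -24 and -10 to -1, and C/EBP matches at 3 places, 1 of which reads on both strands. The Lcn2 window, which overlaps exons of other Lcn2 transcripts and is not printed, held a single C/EBP match, at -216 to -209. A match of letters is a description, not a site or a cause.

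Levels are given in CPM, a gene's count scaled to the library's total, and the libraries held 27612567 to 96491326 counts. Where no read was counted, up to 3 counts could have been missed, or 0.0311 to 0.109 CPM depending on the library (counting error only). The line labels were checked on marker genes. All 12 skeletal muscle markers were detected in C2C12, but their summed level in C2C12 alone ran from 345 to 4847 CPM, with both R3 libraries lowest (345 and 594 CPM). MLg alone held 34450 to 42680 CPM of 12 fibroblast markers, with Tcf21 at 0 in every library and Thy1 at 0.0467 CPM on average. C2C12 alone held more of the same markers, 47530 to 59620 CPM, so their sum did not set MLg apart from C2C12, whereas the muscle markers of MLg alone summed to 6.48 to 14.0 CPM. EO771 alone held 92.6 to 98.0 CPM of 10 epithelial markers, nearly all of it the keratin gene Krt8, with Krt19 and Cldn4 at 0 and Cdh1, Krt7, Esrp1 and Grhl2 under 0.1 CPM on average. Of 10 macrophage markers, Ptprc, Adgre1, Tyrobp and Aif1 were at 0 in all 4 libraries of EO771 alone. The others were detected there, with Cd68 at 11.2 CPM and Lyz2 at 1.41 CPM on average. Fcer1g, Mrc1, Csf1r and Itgam averaged 0.121 to 0.665 CPM.

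Each co-cultured library also held RNA of the partner line, which bears on every result below. It was gauged from genes abundant in the partner alone and nearly absent from the line itself. MLg-specific genes (221) had in EO771 with MLg a summed level of 1.53% ± 0.388 (SD, n = 4) of that in the MLg libraries from co-culture, and C2C12-specific genes (184) 1.01% ± 0.338 (SD, n = 4) in EO771 with C2C12. Of the level of 42 EO771-specific genes, C2C12 with EO771 held 4.50% ± 1.04 (SD, n = 4), and of that of 46 such genes MLg with EO771 held 8.48% ± 3.06 (SD, n = 4). In the lines grown alone these shares were 0.0101% to 0.0237% on average. Below, the level such a share would bring of a gene is set beside the measured level, and tests were repeated after subtracting it from the counts. Those tests treat the subtracted amount as exact, though the share varied between genes.

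The plot of CPM by library shows which lines held each gene's RNA. The classical pathway genes C1ra, C1s1 and C4b, the central component C3 and the inhibitor Serping1 had their highest means in MLg, grown alone or with EO771. Per kb of exon, with the annotated exons of a gene merged, C3 in MLg alone stood at 519 CPM, C1s1 at 356, C1ra at 226, Serping1 at 52.1 and C4b at 34.3. In EO771 alone Lcn2 stood at 10.7 CPM per kb, C1ra at 10.7, C1s1 at 9.98, C3 at 9.20 and Saa3 at 2.40. The merged length can exceed that of the transcript a cell makes, so the order of genes by these values is approximate. The 7 groups in order of mean Saa3 ran from MLg with EO771 (9.75 CPM) through EO771 alone (6.26), MLg alone (2.81), C2C12 with EO771 (1.87), EO771 with MLg (1.29) and EO771 with C2C12 (0.955) to C2C12 alone (0.527). Neighbours in that order overlapped, apart from EO771 alone and MLg alone, and EO771 with C2C12 and C2C12 alone. For Lcn2 the 3 EO771 groups came first (28.1, 26.6 and 14.5 CPM) and only C2C12 alone, the last, did not overlap its neighbour. Hp, which codes for the haemoglobin-binding protein haptoglobin, stayed under 1 CPM in all 28 libraries (0 to 0.988 CPM, at most 38 counts).

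**Figure D1:**
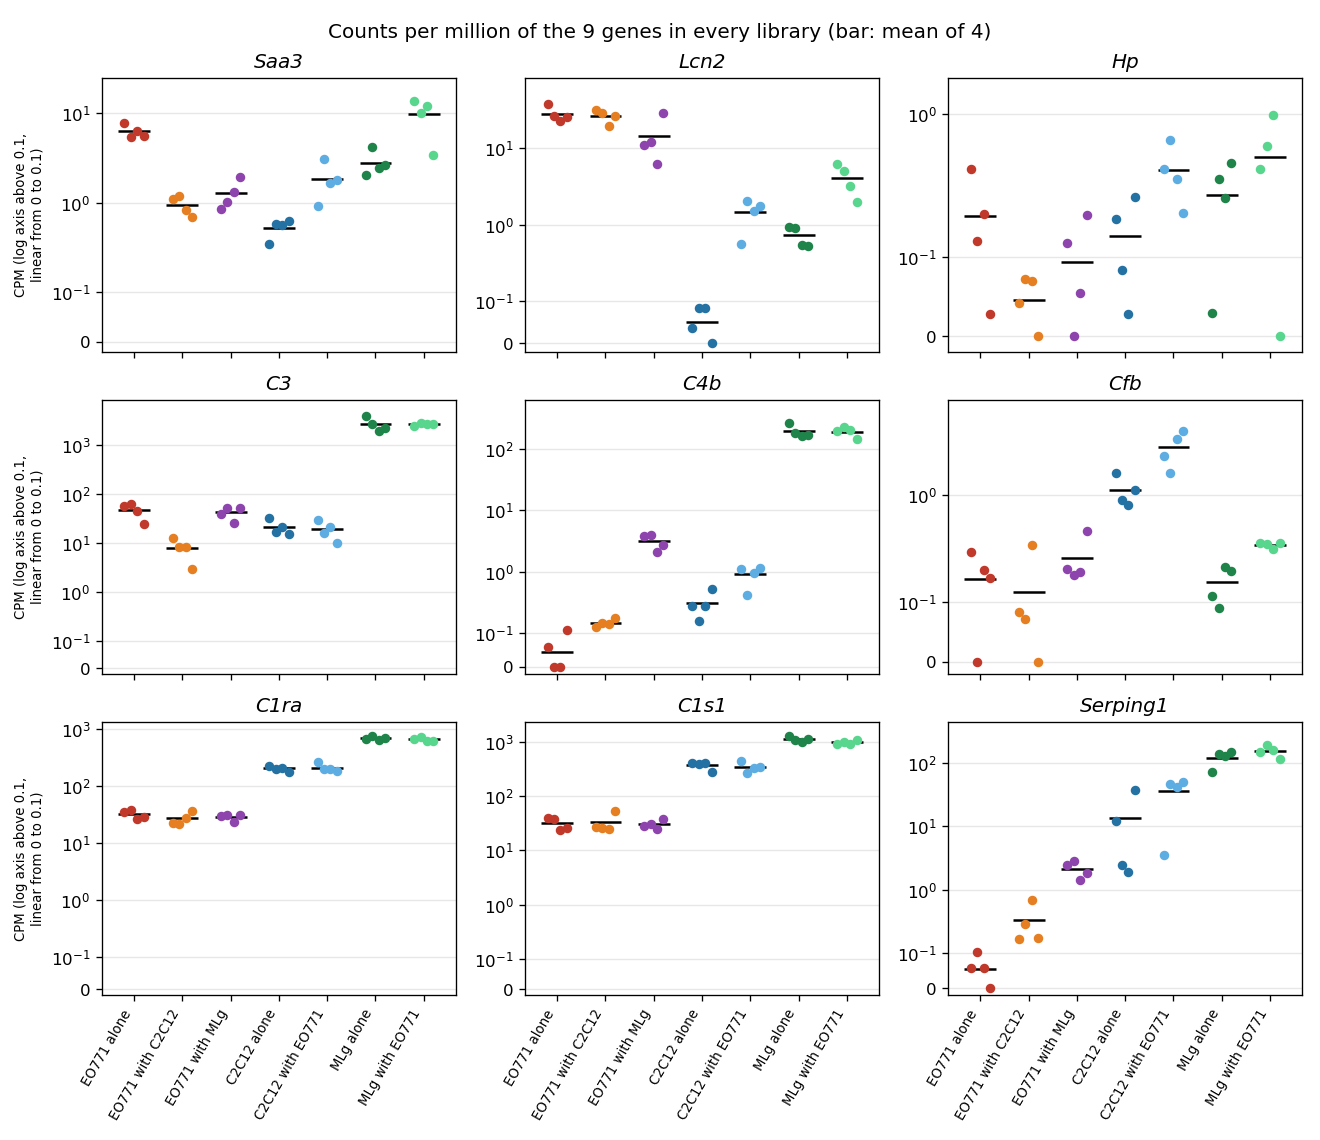
CPM of each of the 9 genes (vertical axes, logarithmic above 0.1 CPM and linear from 0 to 0.1) in the 7 groups (horizontal axis). Points are libraries and bars the mean of 4. C3, C4b, C1ra, C1s1 and Serping1 have their highest points in MLg, Lcn2 has its highest in EO771, and Saa3 is lower in both EO771 groups from co-culture than in EO771 alone.

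C1ra and C1s1, which code for the paired proteases of the C1 complex, lie next to each other on chromosome 6 (chr6:124512405-124523443 on the plus strand and chr6:124530345-124542359 on the minus strand). C1ra ran from 608 to 732 CPM in MLg, from 176 to 258 CPM in C2C12 and from 21.3 to 37.9 CPM in EO771, co-cultured or not, so the 3 lines did not overlap. C1s1 ran from 893 to 1254 CPM in MLg, from 265 to 441 CPM in C2C12 and from 23.4 to 53.6 CPM in EO771. For both genes the groups of 1 line overlapped each other, whereas the lines did not. Their close copies followed the same order at lower levels: C1s2 averaged 149 CPM in MLg alone, 45.3 in C2C12 alone and 2.19 in EO771 alone, and C1rb 25.8, 6.89 and 0.0461 CPM. Reads of close copies can be split in counting, and 18.4% of the exon bases of C1s1 overlap an antisense gene, Gm16567, listed at 0 in all 28 libraries. C1qa, which codes for a chain of the recognition subunit that C1r and C1s attach to, was at 0 in every library.

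C3 (chr17:57203970-57228136) gives the protein cut in every complement pathway. It stood at 3821, 2686, 1938 and 2239 CPM in MLg alone and at 2468, 2837, 2712 and 2739 CPM in MLg with EO771. C2C12 ranged from 10.1 to 32.6 CPM and overlapped between its groups. EO771 alone ranged from 24.3 to 63.4 CPM, overlapped C2C12 alone and lay far below MLg. C4b, which codes for the C4 protein cleaved by C1s, was nearly restricted to MLg by level: 162 to 267 CPM in MLg alone against 0.155 to 0.522 CPM in C2C12 alone and 0 to 0.112 CPM (0 to 4 counts) in EO771 alone. Its close copy C4a was less uneven, with means of 13.6 CPM in MLg alone, 4.65 in C2C12 alone and 2.705 in EO771 alone.

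Serping1 varied widely between C2C12 libraries of 1 group. In C2C12 alone it stood at 12.0 CPM in R2-1, 2.44 in R3-1, 1.91 in R3-2 and 37.6 in R5-1, and in C2C12 with EO771 at 3.47 CPM in R3-1, 46.4 in R5-1, 42.1 in R5-2 and 49.9 in R6-1. The 3 R3 libraries were the lowest of the 8, and the same 3 had the lowest summed muscle markers (345, 594 and 662 CPM against 2151 to 4847 CPM in the other 5). The part of that difference in the Serping1 values was not tested. MLg held 71.0 to 190 CPM and EO771 alone 0 to 0.103 CPM (0 to 4 counts).

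Cfb, which codes for the protease subunit of the alternative pathway convertase, was a C2C12 gene at a low level. It stood at 1.60, 0.902, 0.810 and 1.12 CPM in C2C12 alone, whereas MLg alone did not pass 0.216 CPM and EO771 alone did not pass 0.293 CPM. A same-strand gene, Gm20547, shares 79.5% of its exon bases and was listed at 0 in all 28 libraries.

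In EO771 on C2C12 myotubes, the comparison that chose the set, Saa3 and C3 were lower in every library than in any library of EO771 alone, as the choice of the set implies. Saa3, a serum amyloid A made outside the liver (chr7:46711998-46715700), stood at 7.71, 5.49, 6.34 and 5.50 CPM in EO771 alone and at 1.10, 1.195, 0.8288 and 0.699 CPM in EO771 with C2C12. The highest library with C2C12 lay far below the lowest alone. The difference was -2.78 ± 0.275 on the log2 scale (SE). C3 stood at 57.2, 63.4, 44.3 and 24.3 CPM alone and at 12.7, 8.15, 8.29 and 2.97 CPM with C2C12, again without overlap, a difference of -2.62 ± 0.340 on the log2 scale. The C2C12 share would bring 0.0189 CPM of Saa3 and 0.193 CPM of C3, which is 1.98% and 2.40% of what was measured. Every count is even in 3 of the 4 libraries with C2C12, all but R5-2, and with that library by itself the Saa3 difference was -2.44. The deposited tables of R5-1 and R5-2 in this group carry each other's library name, so which of the 2 has odd counts is in doubt.

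Lcn2, which codes for the iron-carrier-binding lipocalin 2 (chr2:32384633-32388252), stood at 37.9, 26.3, 22.5 and 25.6 CPM in EO771 alone and at 31.5, 29.1, 19.6 and 26.1 CPM with C2C12, and the groups overlapped. C1s1 averaged 31.2 CPM alone and 32.7 CPM with C2C12, and C1ra 32.0 and 26.9 CPM, both with overlap. Serping1 averaged 0.0546 CPM alone and 0.331 CPM with C2C12, at most 20 counts in a library. The C2C12 share would bring 0.360 CPM of Serping1, more than was measured. C4b stood at 0 to 4 counts alone and at 4 to 6 counts with C2C12. Cfb and Hp stayed under the count filter in EO771. Of all genes tested here 33% were called, 18.7% higher and 14.3% lower (adjusted p under 0.05, edgeR's quasi-likelihood test), and nothing is read from the count of members.

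Genes of the lists around the set were tested in this comparison by edgeR's quasi-likelihood test. Of 28 tested inducing signals and transcription factors, 9 were higher and 5 lower. The lower ones included Nfkbiz, an inflammatory co-regulator of NF-kB target genes including Lcn2 (105 ± 7.59 CPM alone, 61.5 ± 3.48 CPM with C2C12, SD, n = 4; log2 change of -0.85 ± 0.136 with adjusted p = 0.00011), the C/EBP factor Cebpb (fell by 0.64 ± 0.152, adjusted p = 0.00314) and Nfkb1 (fell by 0.64 ± 0.093, adjusted p = 4.06e-05). Il1rn, the interleukin 1 receptor antagonist, fell by 1.43 ± 0.272 (adjusted p = 0.000535). Other members of the list were higher. Tnf, which codes for tumour necrosis factor, averaged 0.198 ± 0.173 CPM alone and 0.844 ± 0.270 CPM with C2C12 (SD, n = 4). In EO771 alone it lay near the minimum count of the filter, so no test is read from it, though it is among the 9. The tumour necrosis factor receptor gene Tnfrsf1a and the cytokine gene Lif rose by 0.28 ± 0.101 and 0.52 ± 0.188 (adjusted p = 0.044 and 0.0394). Stat3 was higher by 0.43 ± 0.084 (adjusted p = 0.00063) and its feedback inhibitor Socs3 by 0.86 ± 0.194 (adjusted p = 0.00235). The receptor subunits Lifr and Osmr were also called higher, but the C2C12 share would bring 171% and 73.6% of their measured level. Lifr averaged 0.0275 CPM in EO771 alone, so no test is read from it.

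Among receptors for complement fragments and acute phase proteins, 4 of 9 tested were higher and none lower. C5ar1, the receptor of the C5a fragment, averaged 0.285 ± 0.192 CPM alone and 2.93 ± 0.751 CPM with C2C12 (SD, n = 4). In EO771 alone it lay near the minimum count of the filter, so no test is read from it, though it is among the 4. Itgb2, the shared beta chain of the leukocyte integrins that bind C3 fragments, rose from 4.64 ± 1.27 to 55.7 ± 23.9 CPM (SD, n = 4), by 3.51 ± 0.243 on the log2 scale (adjusted p = 1.09e-08). The C2C12 share would bring 0.0328% and 0.124% of those levels. Cd93, an endothelial and myeloid surface receptor, rose by 1.83 ± 0.429 (adjusted p = 0.00297). The summed level of 10 macrophage markers was 13.1 to 15.4 CPM alone and 11.1 to 12.2 CPM with C2C12. Of the 4 that were tested, Cd68 was lower (11.2 ± 1.19 CPM alone, 7.02 ± 0.388 CPM with C2C12, SD, n = 4), and Lyz2 and Fcer1g did not pass the test. Mrc1, called higher, averaged 0.327 ± 0.0288 CPM alone and 2.31 ± 0.391 CPM with C2C12 (SD, n = 4). With 10 to 13 counts alone it lay near the minimum count of the filter, so no test is read from it. Adgre1 and Tyrobp were at 0 in all 8 libraries, and Ptprc and Aif1 were at 0 alone and at no more than 2 counts with C2C12. The part of such cells in the receptor values was not tested.

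For the remaining lists, called genes were often those that the partner's RNA would bring. Of 10 complement components tested, 4 were higher and 1 lower. The C2C12 share would bring 180% of the measured Colec12 and 111% of the measured Masp1, 2 of the 4 that were higher. Among the regulators, C1qbp, which codes for a protein that binds the globular heads of C1q, averaged 194 ± 19.3 CPM alone and 135 ± 11.9 CPM with C2C12 (SD, n = 4) and was called lower (adjusted p = 0.00134). Of 5 acute phase proteins tested, Cp, ceruloplasmin, fell by 0.63 ± 0.209 (adjusted p = 0.0264), and Lbp and Serpina3n were called higher. Lbp and Serpina3n averaged 0.0611 and 0.0272 CPM alone and 0.377 and 0.247 CPM with C2C12. The share would bring 48.8% and 64.7% of the levels with C2C12. Both genes and Colec12 (0.0269 CPM) were nearly absent from EO771 alone, so no test is read from them.

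EO771 on MLg fibroblasts was compared with the same EO771 alone libraries as above, for all 9 genes. In it 9.59% of all tested genes were called, 5.99% higher and 3.6% lower. Since Saa3 and C3 of EO771 alone are among the values that chose the set, both genes are described here without a test. C4b and Serping1 passed the count filter through the libraries with MLg, where they are high, so they are given as counts and no test is read from them. Saa3 stood at 0.848, 1.02, 1.33 and 1.96 CPM with MLg, below the lowest library alone (5.49 CPM). The difference was -2.27 ± 0.265 on the log2 scale, and the MLg share would bring 0.150 CPM, 11.6% of its measured mean.

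C4b and Serping1 were nearly absent from EO771 alone and low with MLg. C4b went from 0, 0, 2 and 4 counts in EO771 alone to 182, 131, 78 and 110 counts with MLg, which is 2.12 to 3.94 CPM. Serping1 went from 0 to 4 counts in the libraries alone to 52 to 120 counts, 1.42 to 2.80 CPM. No library with MLg overlapped those alone for either gene. The MLg share would bring 2.99 CPM of C4b, 95.3% of its measured mean, and 2.35 CPM of Serping1, 110% of its mean. After subtraction neither gene passed the count filter.

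C3 stood at 39.2, 50.9, 26.0 and 52.2 CPM in EO771 with MLg, overlapping EO771 alone, with a difference of -0.15 ± 0.312 on the log2 scale. MLg carries C3 at 2689 CPM on average in co-culture, so the MLg share would bring 41.3 of the 42.1 CPM measured, or 98.1%. The measured level was 1.56% of that in MLg, against a median of 1.57% and quartiles of 1.40% and 1.74% for the 221 MLg-specific genes. After subtraction 0, 2.97, 0 and 2.05 CPM were left in the 4 libraries. With 0 counts left in 2 libraries no fold or test is given, and how much C3 RNA the EO771 cells themselves kept was not resolved.

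**Figure D2:**
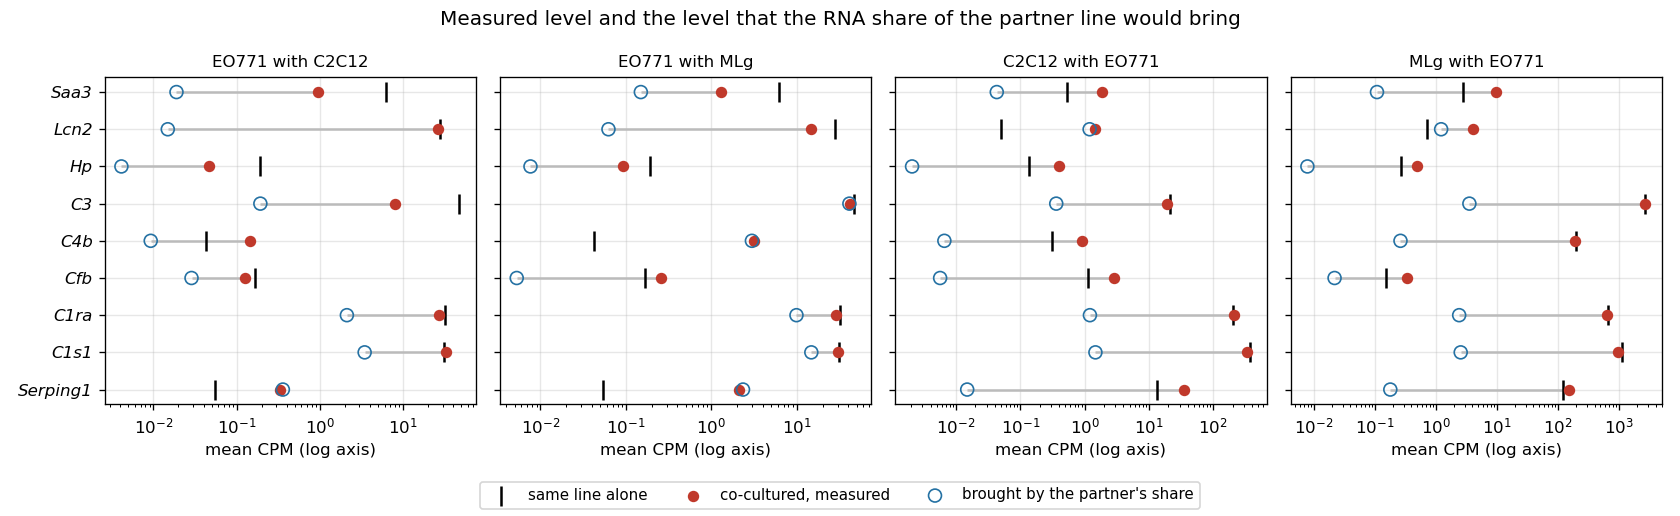
Mean CPM (logarithmic horizontal axes) of the 9 genes in the 4 co-cultured groups: measured (filled), in the same line alone (tick), and the level the RNA share of the partner would bring (open circle). In EO771 with MLg the open circles of C3, C4b and Serping1 lie on the measured values, and in C2C12 with EO771 that of Lcn2 lies close to it, whereas Saa3 is measured well above its open circle in all 4 groups.

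C1ra and C1s1 did not pass the test on the deposited counts (differences of -0.15 ± 0.154 and -0.03 ± 0.218 on the log2 scale, adjusted p = 0.669 and 0.966). The MLg share would bring 34.7% of the C1ra and 48.8% of the C1s1 measured in EO771 with MLg. After subtraction C1ra fell by 0.72 (adjusted p = 0.00852) and C1s1 by 0.96 (adjusted p = 0.0228), p-values that leave out the uncertainty of the share. Lcn2 stood at 11.0, 11.9, 6.21 and 29.0 CPM with MLg, where R7-1 alone lay in the range of EO771 alone. Its difference of -0.95 ± 0.303 missed the threshold (adjusted p = 0.0559). Without R7-1, a library singled out here after its value was seen, the difference was -1.50, and no test is read from that fit.

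**Figure D3:**
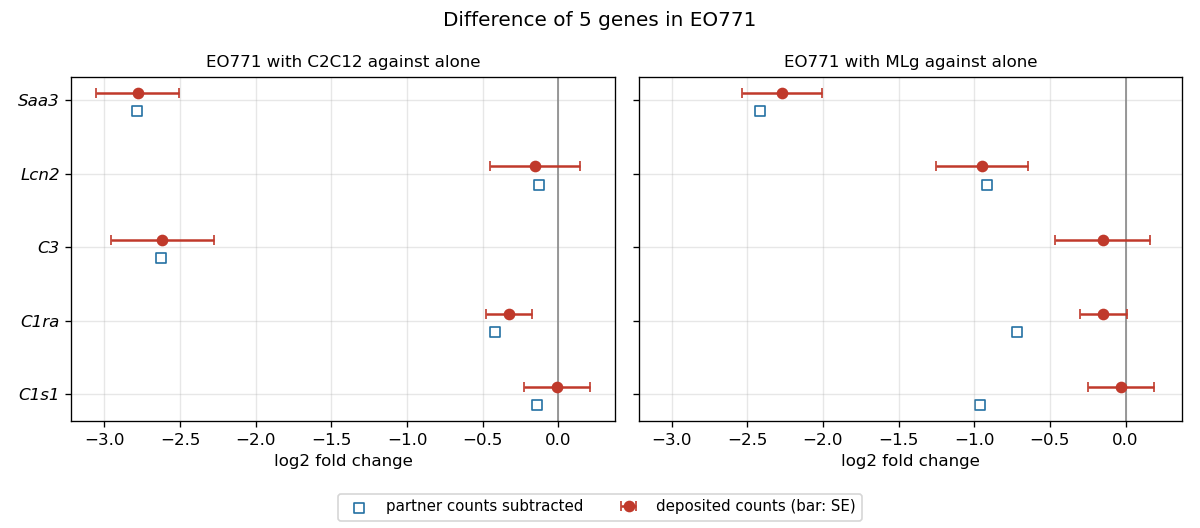
Log2 fold change of 5 genes in EO771 with C2C12 (left) and with MLg (right) against EO771 alone, from the deposited counts (filled, bars are SE) and after subtracting partner RNA (open squares). No value is drawn where a library holds 3 counts or fewer, which leaves out C4b, Serping1 and the square of C3 on the right. On the left the squares follow the points, and on the right those of C1ra and C1s1 lie lower, while Saa3 stays between -2.41 and -2.27.

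In the lists around the set, 6 of 28 inducing signals and factors were higher with MLg, among them Lifr, Osmr and Il1rn, of which the share would bring 83.9% to 110%, and 3 were lower: Nfkbiz (105 ± 7.59 CPM alone, 43.2 ± 12.4 CPM with MLg, SD, n = 4), Nfkb1 and the cytokine Lif. The MLg share would bring 2.48% of the Nfkbiz measured. Clu, clusterin, a fluid-phase inhibitor of the terminal complex, fell from 56.4 ± 3.19 to 29.3 ± 4.03 CPM (SD, n = 4), by 0.93 ± 0.123 (adjusted p = 3.24e-05), and Cp fell by 1.26 ± 0.213 (adjusted p = 0.000438). Itgb2 rose by 2.29 ± 0.236 (adjusted p = 1.78e-06), with 0.846% of its level brought by the share. Of 5 acute phase proteins tested 3 were higher, Serpina3g, Serpina3n and Lbp, and the share would bring 101% to 121% of their levels. The complement components Colec12 and Masp1 were the 2 of 10 called, both higher, with 108% and 106% brought by the share, and the summed fibroblast markers stood at 137 to 156 CPM in EO771 alone and at 460 to 748 CPM with MLg. Serpina3g, Serpina3n, Lbp, Colec12 and Lifr were nearly absent from EO771 alone (0 to 0.0611 CPM on average), so no test is read from them.

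Set directly against each other, the EO771 groups on the 2 hosts overlapped in Saa3 and not in C3, given as a description only, because the libraries on C2C12 belong to the comparison that chose the set. Saa3 ranged from 0.699 to 1.195 CPM on C2C12 and from 0.848 to 1.96 CPM on MLg, with overlap. C3 was lower on C2C12 (2.97 to 12.7 CPM) than on MLg (26.0 to 52.2 CPM), a difference of -2.46 ± 0.338 on the log2 scale. After partner RNA was subtracted, C3 stood at 2.80 to 12.7 CPM on C2C12 and at 0 to 2.97 CPM on MLg, with overlap. The C3 of EO771 itself on MLg was not resolved, with 0 counts left in 2 libraries, so no order or fold is given. Lcn2 ranged from 19.6 to 31.5 CPM on C2C12 and from 6.21 to 29.0 CPM on MLg. Of all genes tested in this comparison 27.7% were called, and 15% were higher and 12.7% lower on C2C12.

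In C2C12, Saa3 was called higher with EO771, in a comparison where 2.68% of the tested genes were called, 2.58% higher and 0.0962% lower. All 9 genes passed the count filter. No test is read from Lcn2, for the reason given below, and the other 7 did not pass the test. Saa3 stood at 0.346, 0.580, 0.558 and 0.623 CPM in C2C12 alone and at 0.919, 3.07, 1.67 and 1.80 CPM with EO771. No library with EO771 fell within the range of those alone, and R3-1 was the lowest of them. The rise was 1.75 ± 0.380 on the log2 scale (adjusted p = 0.042). The EO771 share would bring 0.0429 CPM, 2.30% of the measured mean. Same-numbered C2C12 libraries deviated together, and blocking by R number gave a rise of 1.29 (adjusted p = 0.337). Over the 8 fits that each left out 1 library, the adjusted p of Saa3 was above 0.05 in 7, from 0.0695 to 0.132, and it was 0.0145 without C2C12 with EO771 R3-1. Without all R3 libraries, which have the lowest muscle markers, it was 0.0562.

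Lcn2 went from 0.0365, 0.0829, 0.0838 and 0 CPM (0 to 8 counts) in C2C12 alone to 0.552, 2.03, 1.52 and 1.76 CPM (24 to 96 counts) with EO771. The groups did not overlap. Lcn2 passed the count filter through the libraries with EO771, where it is high, so no test is read from it. EO771 carries Lcn2 at 26.6 CPM in the shared culture, and its share would bring 1.195 of the 1.47 CPM measured, or 81.5%. Lcn2 in C2C12 with EO771 was 5.52% of the EO771 level, against a median of 4.05% and quartiles of 3.21% and 5.18% for the 42 EO771-specific genes. After subtraction 0, 25, 30 and 12 counts were left and the gene no longer passed the count filter. Saa3 then rose by 1.82 (adjusted p = 0.101), so no member was called by edgeR.

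Cfb in C2C12 stood at 2.34, 1.62, 3.33 and 4.02 CPM with EO771 against 0.810 to 1.60 CPM alone. The groups did not overlap, and the difference of 1.31 ± 0.334 on the log2 scale missed the threshold (adjusted p = 0.0923). DESeq2 called it (adjusted p = 0.00361), as it did C4b (0.155 to 0.522 CPM alone, 0.411 to 1.15 CPM with EO771, overlapping; adjusted p = 0.158 in edgeR, 0.0333 in DESeq2). The DESeq2 fit called more genes in all than edgeR did. Neither of these fits takes account of the pairing by R number. The EO771 share would bring 0.2% of the Cfb and 0.718% of the C4b measured. C3 overlapped between the groups (15.5 to 32.6 CPM alone, 10.1 to 29.0 CPM with EO771; difference of -0.22 ± 0.335, adjusted p = 0.899). C1ra and C1s1 also overlapped, with differences of -0.00 ± 0.142 and -0.17 ± 0.196.

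Among the surrounding lists in C2C12, the oncostatin M receptor gene Osmr rose from 167 ± 13.3 to 263 ± 47.1 CPM (SD, n = 4), by 0.60 ± 0.130 on the log2 scale (adjusted p = 0.0411). Serpina3n, an acute phase protease inhibitor, rose from 4.29 ± 1.199 to 15.7 ± 5.29 CPM (SD, n = 4), by 1.81 ± 0.287 (adjusted p = 0.00742), the only acute phase protein of 12 tested that was called. Both adjusted p-values come from the fit without the R number as a block, so they take no account of that pairing. The EO771 share would bring 0.062% of the Osmr and 0.0704% of the Serpina3n measured. Lrp2, which codes for megalin, an uptake receptor that also binds lipocalin 2, was called as well, but EO771 carries it at 55.4 CPM and the share would bring 57.7% of the 4.32 CPM measured. It averaged 0.0370 CPM in C2C12 alone, so no test is read from it. No complement component (11 tested) or regulator (8 tested) was called by edgeR. At an unadjusted p under 0.05 there was 1 gene among both lists, the regulator Clu (1.52 CPM alone, 3.62 CPM with EO771, of which the share would bring 64.1%), and DESeq2 called 0 components and 1 regulator.

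In MLg, Lcn2 and Saa3 were the members called, both higher, with 14.7% of tested genes called, 9.89% higher and 4.81% lower. Saa3 stood at 2.04, 4.16, 2.42 and 2.62 CPM in MLg alone and at 13.6, 10.0, 12.0 and 3.40 CPM with EO771. Of the co-cultured libraries only R7-1 lay within the range of those alone. The rise was 1.82 ± 0.364 on the log2 scale (adjusted p = 0.00544), the EO771 share would bring 0.110 CPM, or 1.12%, and after subtraction the rise was 1.96 (adjusted p = 0.0132). Every count is even in R5-1 and R6-1 of this group, and without them the rise was 1.46 (adjusted p = 0.0836).

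Lcn2 stood at 0.918, 0.907, 0.547 and 0.518 CPM in MLg alone and at 6.21, 4.97, 3.15 and 1.97 CPM with EO771. The groups did not overlap. The rise was 2.51 ± 0.367 on the log2 scale (adjusted p = 0.000637). The EO771 share would bring 1.23 CPM, 30.2% of the measured mean, and after subtraction 5.02, 4.36, 2.36 and 0.791 CPM were left, a rise of 2.16 (adjusted p = 0.0278). R7-1, the lowest for both genes with EO771, then lay within the range of MLg alone.

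**Figure D4:**
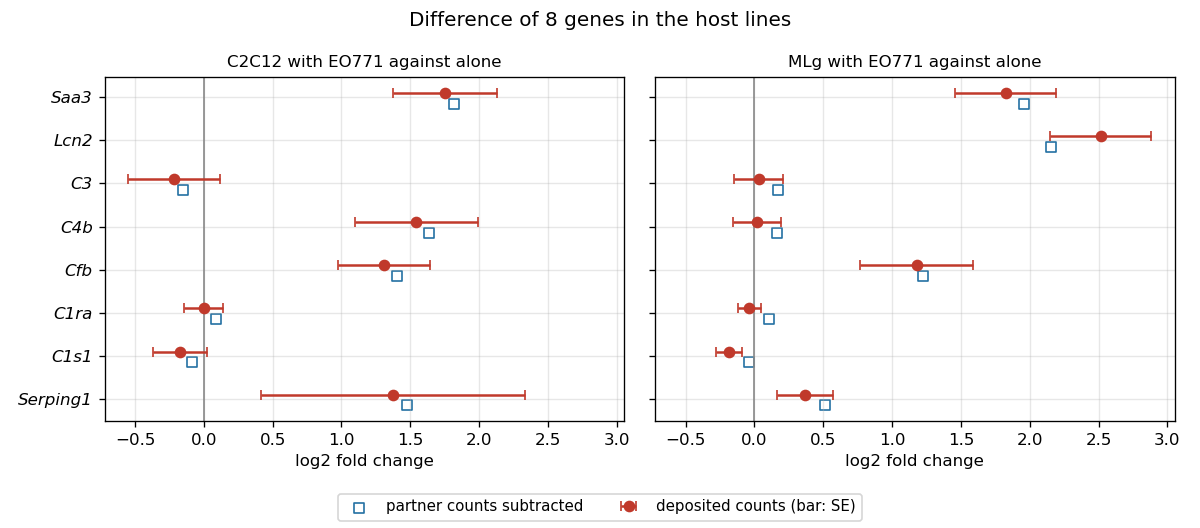
Log2 fold change of 8 genes in C2C12 (left) and MLg (right) with EO771 against the same line alone, from the deposited counts (filled, bars are SE) and after subtracting EO771 RNA (open squares). No value is drawn where a library holds 3 counts or fewer, which leaves out Hp and, in C2C12, Lcn2. Saa3 lies to the right of 0 in both lines and Lcn2 in MLg, and C3, C1ra and C1s1 lie near 0 in both.

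None of the abundant complement genes of MLg passed the test between its groups. C3 averaged 2671 CPM alone and 2689 CPM with EO771 (difference of 0.03 ± 0.177 on the log2 scale, adjusted p = 0.932), C4b 195 and 194 CPM (0.02 ± 0.176, adjusted p = 0.958), and C1ra 674 and 646 CPM (-0.04 ± 0.086, adjusted p = 0.819). C1s1 averaged 1113 and 964 CPM (-0.18 ± 0.096, adjusted p = 0.22) and Serping1 121 and 153 CPM (0.37 ± 0.203, adjusted p = 0.247). Changes as small as these standard errors could not be told from the spread between libraries. Cfb stood at 0.0907 to 0.216 CPM alone (6 to 15 counts) and at 0.312 to 0.362 CPM with EO771 (12 to 20 counts), without overlap. It passed the count filter through the libraries with EO771, where it is high, so no test is read from it.

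Around the set, 6 of 26 tested inducing signals and factors were higher in MLg with EO771 and none lower. Nfkbiz rose from 32.7 ± 3.49 to 69.9 ± 14.3 CPM (SD, n = 4), by 1.12 ± 0.133 (adjusted p = 0.000127). The EO771 share would bring 5.24% of that level, and 34.4% of that of Il17ra, the interleukin 17 receptor gene, which was also higher. Of 9 receptors tested, 4 were higher, among them the toll-like receptor gene Tlr2 (rise of 1.35 ± 0.227, adjusted p = 0.00175). Lrp2 was another, but the EO771 share would bring 124.5% of its level, and with 0.115 CPM on average in MLg alone no test is read from it. C5, which codes for the component cut after C3, rose from 4.87 ± 1.09 to 8.94 ± 1.57 CPM (SD, n = 4), by 0.90 ± 0.193 (adjusted p = 0.0083), 1 of 2 called among 12 complement components, both higher. Among 9 acute phase proteins 3 were higher (Cd14, Cp and Lbp) and Ptx3, the long pentraxin, fell by 0.76 ± 0.203 (adjusted p = 0.0251). Clu, the 1 regulator of 8 called, was higher, and the EO771 share would bring 62.6% of its level.

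Whether the 2 host lines responded differently was tested as the difference of their log2 fold changes, with 16 libraries. No member was called by edgeR's quasi-likelihood test, where 1.84% of all genes were called and 0.778% had a larger and 1.06% a smaller change in C2C12 than in MLg. No test is read from Lcn2, which had 0 to 8 counts in the C2C12 alone libraries. Of the other members C4b had the lowest adjusted p (0.0758), with a difference of 1.57 ± 0.422. DESeq2 called C4b (adjusted p = 0.00869), in a fit that called more genes in all than edgeR did. For Saa3 the difference was -0.07 ± 0.584 (adjusted p = 0.994), and differences as small as that standard error could not be told from the spread between libraries.

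The genes whose level ran most like that of each member over the 28 libraries were found by Pearson's r of log2(CPM + 1) among 15272 genes, as a description. The libraries share 3 lines, so a gene that separates the lines the same way scores high. C1s1 was closest to its own copy C1s2 (r = 0.999) and to C1ra (r = 0.994). C3 was closest to Il1rl1, the interleukin 33 receptor gene (r = 0.979), and to Tfpi, an inhibitor of coagulation (r = 0.979). C4b was closest to the serpin gene Serpina3h (r = 0.996), Serping1 to Enpp2, which codes for autotaxin (r = 0.99), Lcn2 to Snx20 (r = 0.968) and Cfb to Slc44a5 (r = 0.958). Saa3 had no such close match: its highest r was 0.801, with the chemokine gene Cxcl16. The closest gene of some members changed when 0.1 instead of 1 was added to the CPM. It became Adam33 for Lcn2 (r = 0.975), Il13ra2 for Cfb (r = 0.911) and Gda for Serping1 (r = 0.989). For C3, C4b, C1s1 and Saa3 it stayed the same. Among the members, Saa3 and Lcn2 correlated with each other at r = 0.248, and Lcn2 with C1s1 at r = -0.82.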

How the data were processed

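RNA of 28 libraries of 3 mouse lines was analysed from the deposited raw counts per gene, with no normalization by the authors in the deposited tables. STAR 2.7.10a, Subread 2.0.1 with featureCounts, fastp and DESeq2 are named, with no role, per the submitters' processing notes. Genome build, annotation and strand setting: not given in the sources used here. RNeasy extraction and TruSeq stranded mRNA libraries are stated per the labels' protocols. All 55536 identifiers were found in GENCODE M21 (GRCm38), used for symbols and coordinates. Only even counts stood in 5 libraries: 3 of EO771 with C2C12 (R3-1, R5-1, R6-1) and R6-1 and R5-1 of MLg with EO771. In the other 23, 41.6% to 44.8% of nonzero counts were odd. All 42 replicate pairs differed by more than sampling noise (chi-square of at least 13.4 per degree of freedom).

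The members and gene lists were chosen with earlier results of these data known. Tests used edgeR 4.0.16 (R 4.3.3): TMM, filterByExpr (minimum count 10, minimum total 15), quasi-likelihood test, Benjamini-Hochberg adjustment over all genes tested, threshold 0.05. The 12 EO771, 8 C2C12, 8 MLg and 16 host libraries each had 1 fit. CPM used library totals. The scripts were tested on simulated data. Partner-specific genes had at least 20 CPM in every library of the partner alone and at most 0.1 CPM in every library of the line alone; the share times the gene's mean in the co-cultured partner was subtracted. Named were all members and, per list and comparison, up to 3 called genes of largest absolute log2 fold change at a mean of 1 CPM or more in a group; the text uses some of these, and other genes of the lists that it names were chosen after their values were seen. Likeness took genes of at least 1 CPM in a group. Alternatives were DESeq2 1.42.0, other scalings, no filter, all 28 libraries in 1 fit, the R number as a block, halved even counts, and each library left out. What an R number marks is not stated. In C2C12 the 4 same-numbered pairs between the groups correlated at 0.28 to 0.584 in their deviations from the group means, so the numbers were taken as pairing; in EO771 2 of 12 pairs and in MLg 0 of 5 exceeded 0.1. Results for some genes of the lists are not reported here.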

Additional observations from a re-analysis of the deposited data

Results flagged for a closer look

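Each member in each of the 7 groups of 4 libraries was screened for a library far from the other 3 (63 screens, by the gap to the nearest library over the whole range). Chance flags about 1 in 20 screens, and 6 were found. Serping1 in C2C12 with EO771 was 3.47 CPM in R3-1 and at least 42.1 CPM in the others. C1ra in C2C12 with EO771 was 257.8 CPM in R3-1, the highest, and in EO771 with MLg 22.92 CPM in R6-2, the lowest. C1s1 was 275.2 CPM in C2C12 alone R5-1, the lowest, and 53.64 CPM in EO771 with C2C12 R3-1, the highest. Cfb in EO771 with MLg was 0.4656 CPM in R7-1, the highest, from 19 counts.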

How the results depend on the processing

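Of 974 member log2 fold changes under alternatives, 936 were labelled the same. Where calls were made, that meant the same side of the threshold, and a change of sign without a call counted as the same. In the EO771 comparisons that involve C2C12, it meant a shift under the pooled SD of log2 CPM. The labels also cover fits from which no test is read above, such as Saa3 and C3 in EO771 with MLg and Lcn2 in C2C12. The total is therefore no measure of how stable the tests read above are. In EO771 with C2C12, Saa3 moved to -2.44 without the even-count libraries, which left 1 library in that group. In C2C12, the members called changed from 2 to 4 with DESeq2, 0 after partner subtraction, 1 with the replicate block (a pairing by R number), 1 without the R3 cultures, and 1 to 2 when a library was left out. These C2C12 counts include Lcn2 wherever it passed, though no test is read from it. In MLg, 2 became 1 without the even-count libraries. For the difference between the hosts, 0 became 1 with DESeq2, with all 28 libraries in 1 fit, without the filter and without the R3 cultures (then Lcn2, over C2C12 alone libraries of 2 and 0 counts), and was 0 to 1 when a library was left out. The block gave Lcn2 in EO771 with MLg -1.34 (adjusted p = 0.000555) and C4b in MLg 0.34 (adjusted p = 0.024), where the numbers were not shown to pair samples. Genes called in all fell after partner subtraction from 445 to 121 in C2C12, 2472 to 775 in MLg, 1515 to 863 in EO771 with MLg and 343 to 39 between hosts; DESeq2 called 822 in C2C12 and 733 between hosts, and the fit of all 28 libraries 1176 and 549. Without the even-count libraries 1322 against 5205 were called in EO771 with C2C12, 732 against 4371 between the EO771 groups, 1153 against 2472 in MLg and 178 against 343 between hosts. MLg calls were 1627 without MLg alone R6-1 and 1569 without R6-2. Leaving out the R3 cultures or the even-count libraries was chosen after seeing the data. Under 1 CPM, depth limits Hp, Cfb and C4b outside MLg. Halving the even counts changed no call of a member. Scaling by TMM moved 1 of 63 levels, C1ra in C2C12 alone (232 CPM), by more than 1 SD.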
